A study of Mus musculus with 12 samples.

Results

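The 5 genes of the Ikaros family, Ikzf1 to Ikzf5, were followed across early development of thymic iNKT cells (invariant natural killer T cells), lymphocytes that recognise lipid antigens through a semi-invariant receptor. The members were taken by gene symbol, and all 5 had a row among the 48672 Ensembl gene IDs measured by RNA sequencing. They encode the zinc-finger transcription factors Ikaros (Ikzf1), Helios (Ikzf2), Aiolos (Ikzf3), Eos (Ikzf4) and Pegasus (Ikzf5). Zinc fingers in the first part of each protein bind DNA, and fingers near its end join family members into dimers. The proteins recruit chromatin complexes such as NuRD to their target genes. Ikaros is known for its part in lymphocyte development and in silencing of thymocyte genes, Aiolos for its part in B and T cell maturation, and Helios and Eos for their expression in regulatory T cells.

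The cells came from the thymus of C57Bl/6J mice 4 to 5 weeks old, with thymi of 4 to 7 animals pooled. They bound the tetramer and carried the T cell receptor beta chain. Stage 0 cells were CD24 positive and CD44 negative, and stage 1 cells were negative for both. Animals were wild type (WT) or of the genotype written CDCre;Bcl6F/F, called Bcl6KO, in which a Cre transgene acts on floxed Bcl6 alleles. The 12 libraries form 4 groups of 3, 1 for each genotype at each stage. The labels do not spell out the promoter that drives Cre, whether WT animals carried Cre or floxed alleles, or whether a group's 3 libraries represent different pools of animals. A p-value here thus rests on the library-to-library spread, which could be technical. BCL6 is a transcriptional repressor, and the comparisons ask how family members differ between stages and with Bcl6 targeting.

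Levels are normalised values, which are read numbers that the authors scaled per library and rounded to whole numbers. They are not raw counts. In library 2 of Bcl6KO stage 0, 65 of the whole numbers from 1 to 100 were taken by no gene. In library 3 of that group 44 were absent, and in library 3 of WT stage 0 3 were absent. One read was worth 2.85, 1.79 and 1.03 units in these libraries, which gives about 2819119, 3803315 and 4890066 reads. In the other 9 libraries the number of reads behind a value could not be recovered. Totals of the values ran from 4129919 to 8038717 and are not depths. Sp100, a nuclear body gene, took 10.8% to 23.9% of the total in Bcl6KO stage 0 and 0.0283% to 5.03% in the other 9 libraries. Its part in the results was not tested beyond the fits named below.

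The CD24 sort was visible in Cd24a, at 758 to 904 in WT stage 0 and 780 to 1566 in Bcl6KO stage 0. At stage 1 it stood at 4 to 67 in both genotypes. Both stages were sorted as CD44 negative, and Cd44 RNA was not equal between them. Cd44 stood at 1, 40 and 31 in WT stage 0 and at 135, 17 and 72 in WT stage 1. In Bcl6KO it stood at 1, 9 and 7 at stage 0 and, without overlap, at 109, 33 and 105 at stage 1. All 10 iNKT markers were above 0 in every group. Among them, Zbtb16 stood at 970, 1065 and 492 in WT stage 0 and at 474, 46 and 245 in Bcl6KO stage 0, without overlap. At stage 1 it stood at 2055, 2942 and 3126 in WT and at 1619, 1534 and 2206 in Bcl6KO. The sums of the 10 markers overlapped between genotypes at stage 0 (13913 to 18439 in WT, 12746 to 18746 in Bcl6KO). Bcl6 itself stood at 1875, 1100 and 1398 in WT stage 0 and at 2559, 3466 and 3312 in Bcl6KO stage 0. It stood at 44, 21 and 42 in WT stage 1 and at 74, 282 and 126 in Bcl6KO stage 1. Values cover the whole gene, so they do not show whether floxed exons were removed.

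The second zinc finger found in each member, counted along the coding sequence, is shown to compare the members. Sequences are the coding strand, 5′ to 3′, of mouse build GRCm38 with GENCODE M21 transcripts. Capitals mark the codons of the cysteine and histidine pairs that hold the zinc ion.
Ikzf1 (chr11:11754024-11754086, plus strand, exon 6): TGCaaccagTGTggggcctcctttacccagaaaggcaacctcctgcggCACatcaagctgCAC
Ikzf2 (chr1:69570581-69570643, minus strand, exon 5): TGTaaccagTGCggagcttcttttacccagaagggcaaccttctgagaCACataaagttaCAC
Ikzf3 (chr11:98488940-98489002, minus strand, exon 5): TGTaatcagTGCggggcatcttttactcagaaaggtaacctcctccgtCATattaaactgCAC
Ikzf4 (chr10:128640229-128640291, minus strand, exon 5): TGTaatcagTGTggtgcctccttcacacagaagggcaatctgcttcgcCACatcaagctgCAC
Ikzf5 (chr7:131392501-131392563, minus strand, exon 4): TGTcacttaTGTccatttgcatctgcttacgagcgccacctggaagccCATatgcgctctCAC
Fingers were counted along the coding sequence by the spacing of these codons, and 5 or 6 were found per member. Fingers with another spacing are missed by this search, so these counts can be too low. Ikzf1 to Ikzf4 encode the same residue at 21 of 21 codons of this finger, although any pair of them shares only 48 to 53 of the 63 bases. Ikzf5 encodes the same residue as each of the others at 5 of 21 codons, 4 of which the search pattern fixes. Fingers were matched by their order alone, so the second finger of Ikzf5 may not correspond to that of Ikzf1 to Ikzf4. The 5 of 21 is therefore no measure of how closely Ikzf5 is related to them. The longest exact run shared by the coding sequences of any pair was 26 bases, between Ikzf1 and Ikzf3. How the authors assigned reads that fit several genes is not given in the sources used here.

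The genes lie apart in the genome (GRCm38, GENCODE M21). Ikzf1 (ENSMUSG00000018654) spans chr11:11685003-11772926 on the plus strand. Ikzf2 (ENSMUSG00000025997) spans chr1:69531214-69687245, Ikzf3 (ENSMUSG00000018168) chr11:98464902-98546031, Ikzf4 (ENSMUSG00000002578) chr10:128630843-128645991 and Ikzf5 (ENSMUSG00000040167) chr7:131388652-131410521, all on the minus strand. No exonic base of Ikzf1 or Ikzf3 lies in an exon of another gene, and the share was 1.24% for Ikzf2 and 0.62% for Ikzf4. For Ikzf5 it was 84.51%, of which Pstk on the opposite strand accounts for 81.31% of the exonic bases. The strand setting of the authors' counting is not given, so the values of Ikzf5 may hold reads of Pstk and are uncertain.

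Ikaros was the most abundant family RNA per exonic length in 12 of 12 libraries. Mean levels over the 12 libraries, as normalised value per kilobase, were 1484 ± 572 (SD) for Ikzf1, 459 ± 290 for Ikzf3, 218 ± 85.6 for Ikzf2, 39.6 ± 24.8 for Ikzf5 and 24.2 ± 27.1 for Ikzf4. Ikzf2 was above Ikzf3 in 2 of 12 libraries, both of Bcl6KO stage 1, and Ikzf4 above Ikzf5 in 2 of 12, so the ranges of these neighbours overlapped. Ikzf1 and Ikzf3 also overlapped in range across libraries. Taking the longest annotated transcript as the length left Ikzf1 above Ikzf3 in 11 of 12 libraries and Ikzf2 above Ikzf3 in 0 of 12.

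The share of summed family level per kilobase held by Aiolos was 23.0% ± 2.15 (SD, n = 3) in WT stage 0, 26.2% ± 6.81 in WT stage 1, 21.6% ± 5.34 in Bcl6KO stage 0 and 8.54% ± 3.24 in Bcl6KO stage 1. The share held by Ikaros was 63.8%, 58.4%, 66.5% and 78.8% in the same order. Bcl6KO stage 1 was the group with the smallest mean Aiolos share and the largest mean Ikaros share.

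**Figure D1:**
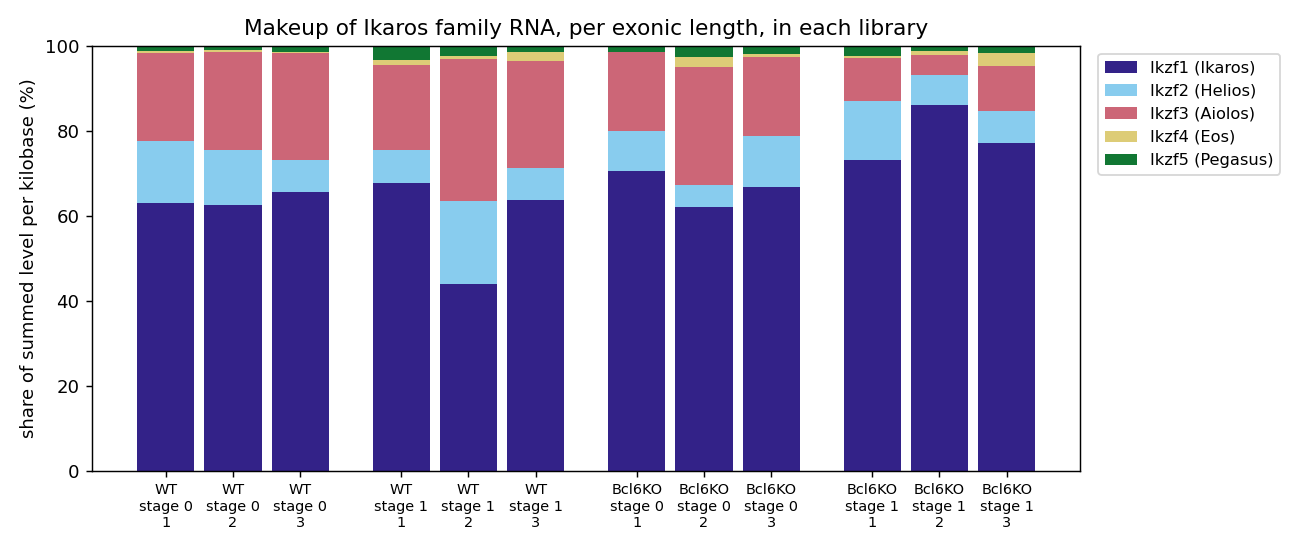
Share (%) of the summed level per exonic kilobase held by each Ikaros family gene, 1 bar per library. Aiolos holds 4.82% to 10.7% in Bcl6KO stage 1 and 18.5% to 33.5% in the other 9 libraries.

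Aiolos fell between stage 0 and stage 1 in Bcl6KO cells. The 3 libraries of Bcl6KO stage 0 had Ikzf3 values of 4680, 10283 and 4898, while the stage 1 libraries had 1135, 844 and 1448. Every stage 1 library lay below every stage 0 library, and stage 0 library 2 stood well above the other two of its group. The log2 fold change, taken on log2(value + 4), was -2.47 (SE 0.32, 95% interval -3.15 to -1.78), a 5.52-fold fall. It passed limma's test with an adjusted p of 0.00220, the 11th lowest p of 15739 genes tested. In this comparison 296 genes passed (1.88%), and 87 of them fell (0.553%). Ikzf3 was the only member of the family past the threshold here, which is 1 of 5.

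The fall of Ikzf3 in Bcl6KO was called in each of 25 other fits, with log2 fold changes between -2.67 and -1.93 and adjusted p between 0.00215 and 0.0400. They include fits without any 1 library and with the level of Sp100 as a covariate (-2.23, adjusted p = 0.0400). Leaving out libraries 2 and 3 of Bcl6KO stage 0 together gave -2.07, with 1 library left in that group. Several of the 25 fits cannot move the estimate of -2.47 and change only its spread or adjustment. These are the fits without a WT library, the filter on low values or robust moderation. The fits with replicate number as a block and with only the groups compared are also of this kind.

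**Figure D2:**
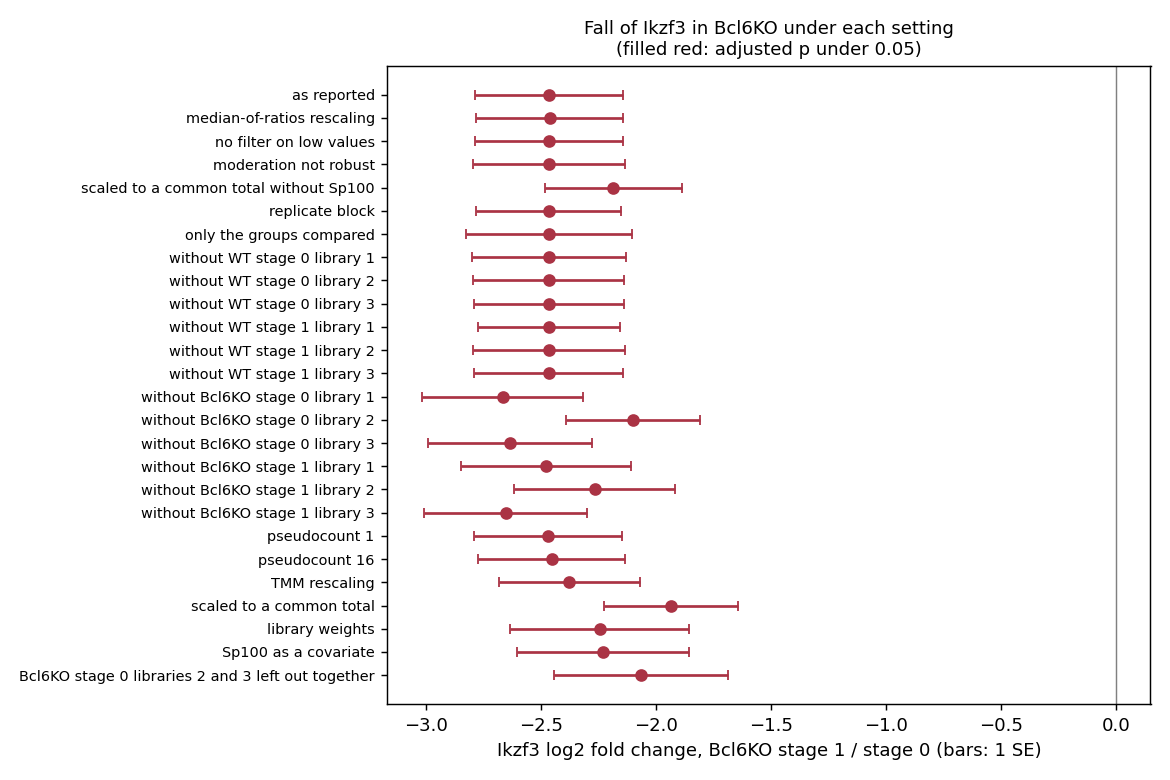
Log2 fold change of Ikzf3 between stages in Bcl6KO under each fit (points) with 1 SE (bars). All 26 points lie between -2.67 and -1.93 and are filled, which marks an adjusted p under 0.05. Points at -2.47 include fits that cannot move the estimate.

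Levels of markers of other cell types were not the same in these groups, and myeloid markers overlapped between the stages. The summed value of 6 B cell markers was 95 to 721 in Bcl6KO stage 0 and 36 to 71 in Bcl6KO stage 1, where 5 of 6 were above 0 and Ms4a1 was at 0. It was 109 to 288 in WT stage 0 and 128 to 330 in WT stage 1, where Ms4a1 was also at 0. The 7 double-positive thymocyte markers summed to 6621 to 7213 in Bcl6KO stage 0 and 2214 to 4861 in Bcl6KO stage 1, against 2685 to 8216 and 993 to 2855 in WT. The 8 myeloid and dendritic cell markers summed to 84 to 446 in Bcl6KO stage 0 and to 221 to 630 in Bcl6KO stage 1, where Itgax and Flt3 were at 0, against 78 to 232 and 83 to 318 in WT. The 7 thymic stroma markers, of which Krt5, Krt8 and Pdgfra were at 0 in every group, summed to 220 to 510 and 175 to 183 in Bcl6KO, against 133 to 409 and 125 to 141 in WT. Their part in the level of Ikzf3 was not tested. In sorted bulk cells, fewer cells with the RNA and less RNA per cell cannot be told apart.

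In WT cells Ikzf3 stood at 4472, 3979 and 5758 at stage 0 and at 2492, 3944 and 4245 at stage 1. The ranges overlapped, and the log2 fold change of -0.43 (SE 0.32, 95% interval -1.12 to 0.25) did not pass (adjusted p = 0.735). It was -0.19 without library 1 of WT stage 1 and -0.28 without library 3 of WT stage 0. No family member passed in WT, where 177 genes did (1.12%). At stage 1 all 3 Bcl6KO libraries lay below all 3 WT libraries for Ikzf3, as they did for 6.79% of genes, with a log2 fold change of -1.63 (SE 0.32, 95% interval -2.32 to -0.95). This difference had the 9th lowest p of all genes (1.38e-04) and did not pass after adjustment (adjusted p = 0.241). No gene passed at stage 1 (0.00%), and 507 had an unadjusted p under 0.05 (3.22%). Weighting libraries by their quality in limma gave -1.39 and an adjusted p of 0.0393, with 16 genes called.

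Whether the stage difference of Ikzf3 depended on genotype was tested directly. The genotype effect at stage 1 minus that at stage 0 was -2.03 on the log2 scale (SE 0.45, 95% interval -3.00 to -1.07). Its unadjusted p of 4.51e-04 ranked 8th, and it did not pass (adjusted p = 0.585). No gene passed this test (0.00%), and 934 had an unadjusted p under 0.05 (5.93%). The fall in Bcl6KO is therefore not shown to be larger than that in WT. Averaged over stages, no member differed between genotypes beyond the threshold, which 7 genes passed (0.0445%).

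**Figure D3:**
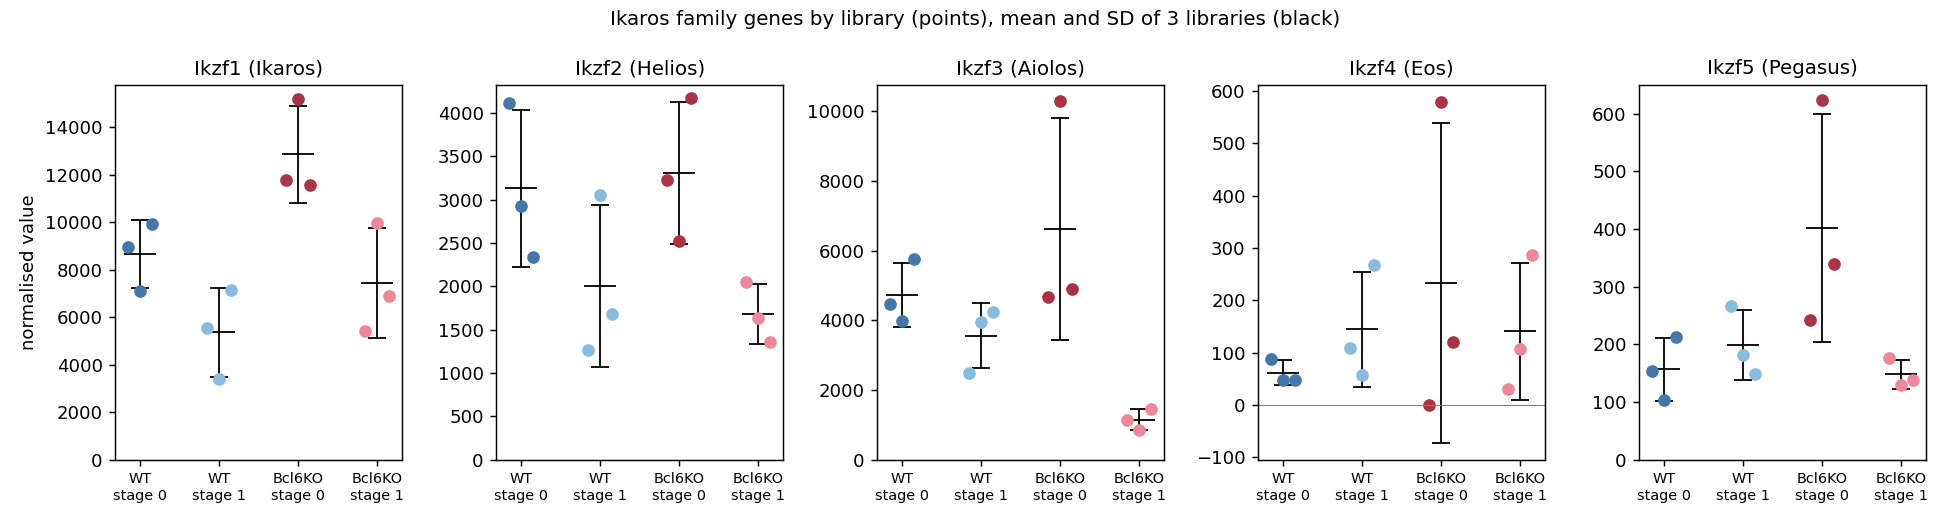
Normalised value of each family gene (y axis, linear and different in each panel) in the 12 libraries (points), with mean and SD of 3 libraries (black). Ikzf3 lies at 844 to 1448 in Bcl6KO stage 1, below the 2492 to 10283 of all other libraries.

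Ratios of members within a library do not depend on how that library was scaled. The Ikzf3 value per Ikzf1 value was 0.546 ± 0.0423 (SD, n = 3) in WT stage 0, 0.734 ± 0.375 in WT stage 1, 0.499 ± 0.155 in Bcl6KO stage 0 and 0.168 ± 0.0722 in Bcl6KO stage 1. Bcl6KO stage 1 (0.0848 to 0.210) did not overlap with WT stage 1 (0.449 to 1.16) or Bcl6KO stage 0 (0.397 to 0.677). Ikzf3 per Ikzf2 was 0.711 ± 0.305 in Bcl6KO stage 1, also without overlap with these groups, and 1.92 ± 0.615 in WT stage 1. An exact two-sided permutation test gave p = 0.1 for each of these 4 comparisons, the smallest p that 3 libraries against 3 allow, and 0.30 after adjustment over the 12 ratio comparisons made.

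**Figure D4:**
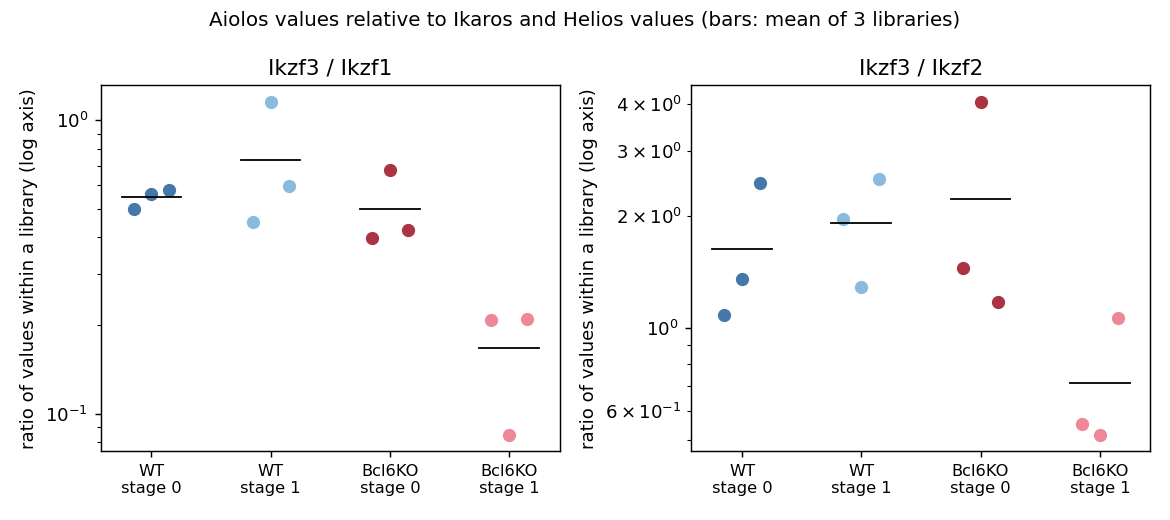
Ratio of Ikzf3 to Ikzf1 (left) and to Ikzf2 (right) values within each library, on log axes (points), with group means (bars). The 3 Bcl6KO stage 1 libraries lie at 0.0848 to 0.210 on the left and 0.517 to 1.06 on the right.

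Ikaros fell with stage when both genotypes were averaged. Ikzf1 stood at 8967, 7094 and 9935 in WT stage 0 and at 5554, 3404 and 7133 in WT stage 1. It stood at 11790, 15188 and 11576 in Bcl6KO stage 0 and at 5424, 9957 and 6883 in Bcl6KO stage 1. Stage 1 lay wholly below stage 0 in Bcl6KO, and the groups overlapped slightly in WT. The mean stage change was -0.78 (SE 0.19, adjusted p = 0.0270), beside -1.45 (SE 0.23, adjusted p = 0.00195) for Ikzf3. Of all genes 745 passed this comparison (4.73%), and 264 of them fell (1.68%), so 2 of 5 members were called.

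The call of Ikzf1 was lost without library 1 or 3 of WT stage 0, library 1 or 2 of WT stage 1, or library 1 or 3 of Bcl6KO stage 1 (adjusted p 0.0527 to 0.0778). It was also lost with library weights (-0.74, adjusted p = 0.0633) and without libraries 2 and 3 of Bcl6KO stage 0 together (-0.73, with 1 library left in that group). With Sp100 as a covariate neither was called (Ikzf1 -0.43, adjusted p = 0.436; Ikzf3 -1.26, adjusted p = 0.0655), and values scaled to a common total gave -0.46 for Ikzf1 (adjusted p = 0.124). Within single genotypes Ikzf1 did not pass, with -0.74 (SE 0.27, adjusted p = 0.274) in WT and -0.83 (SE 0.27, adjusted p = 0.136) in Bcl6KO. Between genotypes the 3 Bcl6KO stage 0 libraries lay above all 3 WT stage 0 libraries, as they did for 4.70% of genes. That difference of 0.57 (SE 0.27) did not pass (adjusted p = 0.383), and 14 genes did (0.0890%). No family member was among them.

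Helios showed a stage difference of similar size that did not pass. Ikzf2 stood at 4120, 2930 and 2337 in WT stage 0 and at 1271, 3055 and 1685 in WT stage 1. It stood at 3231, 2528 and 4168 in Bcl6KO stage 0 and at 2055, 1633 and 1363 in Bcl6KO stage 1. The groups overlapped in WT, where library 2 of stage 1 was high, and not in Bcl6KO. The mean stage change was -0.83 (SE 0.23, adjusted p = 0.0547), and it passed without library 2 of WT stage 1 (-1.01, adjusted p = 0.0204) or library 2 of Bcl6KO stage 0 (-0.92, adjusted p = 0.0363). Genotype differences were 0.09 (SE 0.33, 95% interval -0.61 to 0.79) at stage 0 and -0.17 (SE 0.33, 95% interval -0.88 to 0.53) at stage 1.

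Eos was the least abundant member and the most variable. Ikzf4 stood at 89, 48 and 48 in WT stage 0, at 110, 57 and 268 in WT stage 1, and at 31, 107 and 286 in Bcl6KO stage 1. In Bcl6KO stage 0 it stood at 1, 579 and 120, the lowest and the highest value of all 12 libraries. The coefficient of variation in that group was 131%, against 15.8% for Ikzf1 in the same libraries. No comparison of Ikzf4 passed, and the 95% interval of its genotype ratio at stage 0 ran from 0.159-fold to 8.03-fold. The summed value of the 6 regulatory T cell markers, which include Ikzf4, was 168 to 879 in Bcl6KO stage 0 and 147 to 523 in the other groups. This sum is not independent of Ikzf4, which alone reached 579 in Bcl6KO stage 0.

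Pegasus, whose values overlap with those of Pstk, stood at 154, 104 and 213 in WT stage 0 and at 266, 182 and 149 in WT stage 1. It stood at 242, 624 and 340 in Bcl6KO stage 0 and at 177, 129 and 139 in Bcl6KO stage 1. Bcl6KO stage 0 lay above WT stage 0 and Bcl6KO stage 1 without overlap. The log2 fold changes of 1.28 between genotypes at stage 0 (SE 0.51, adjusted p = 0.301) and of -1.32 between stages in Bcl6KO (SE 0.51, adjusted p = 0.218) did not pass. Pstk itself averaged 198 ± 87.5 (SD, n = 3) in WT stage 0, against 453 ± 157 for Bcl6KO stage 0 and 178 ± 46.0 for Bcl6KO stage 1. In WT stage 1 it averaged 253 ± 85.7. Its mean was thus also highest in Bcl6KO stage 0, where its values ran from 275 to 573. That range overlapped with WT stage 0 (131 to 297) and WT stage 1 (157 to 322), and not with Bcl6KO stage 1 (125 to 210). Stage 1 lay below stage 0 without overlap in Bcl6KO for Ikzf1, Ikzf2, Ikzf3 and Ikzf5, as it did for 5.95% of genes.

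**Figure D5:**
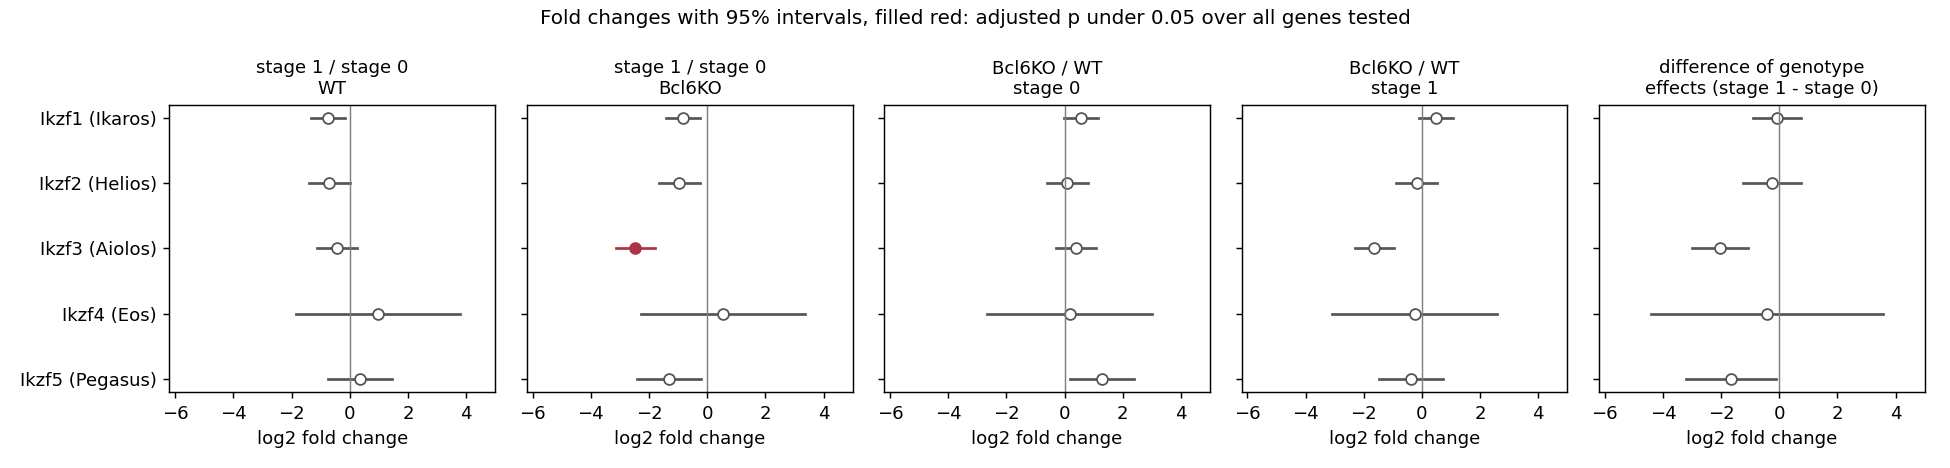
Log2 fold change of each family gene (points) with 95% interval (lines) in 4 comparisons and in the difference of genotype effects. Ikzf3 between stages in Bcl6KO (-2.47) is the only filled point, which marks an adjusted p under 0.05 over all genes.

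Directions of the genotype differences depended on scaling for some members. Scaling the values to a common total, of which Sp100 holds a large share in Bcl6KO stage 0, moved the median of all genes between genotypes at stage 0 from -0.18 to -0.57. It turned Ikzf2 to -0.40, Ikzf3 from 0.40 to -0.09 and Ikzf4 from 0.17 to -0.27 in that comparison, all uncalled. It moved the genotype change of Ikzf1 at stage 0 to 0.08 and left the fall of Ikzf3 in Bcl6KO called at -1.93 (adjusted p = 0.00534), beside a median of all genes of 0.64. With that scaling 7 of 55 genes called between genotypes at stage 0 were higher in Bcl6KO, against 8 of 14, and 407 of 448 called between stages in Bcl6KO rose, against 209 of 296. In the mean of genotypes 790 of 967 rose, against 481 of 745.

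Partners of the family showed few calls. None of the 13 NuRD genes, 11 SWI/SNF remodelling genes or 11 genes of the CRL4-CRBN ligase and the kinases and phosphatases that act on Ikaros passed in any of the 7 comparisons. By level per kilobase the leading members were Gatad2b (357) in NuRD, Arid1a (428) in SWI/SNF and Ppp1cc (281) in the ligase and kinase list. Between stages, as a mean of genotypes, the median log2 fold changes of the NuRD, SWI/SNF and ligase lists were -0.01, -0.35 and 0.00, beside 0.15 over all genes tested. Of the 9 Sin3 and CtBP corepressor genes, 1 rose between stages in Bcl6KO, as did 1.33% of all genes (median of the list -0.45, of all genes 0.20). It was the corepressor gene Ctbp2. Its value was 1.00 ± 1.73 (SD, n = 3) in stage 0 and 44.7 ± 24.8 in stage 1 (log2 fold change 3.22, SE 0.69, adjusted p = 0.0320). The stage 0 mean is at the floor, below the worth of 1 read in libraries 2 and 3 of that group (2.85 and 1.79). The size of the Ctbp2 rise is therefore uncertain. No gene of that list was called without any 1 library of either stage 1 group, without library 3 of Bcl6KO stage 0, or with Sp100 as a covariate. The leading corepressor gene by level per kilobase was Ncor1 (305).

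Some genes known to respond to the family differed between stages. Of 12 thymocyte genes tested, 5 fell between stages in the mean of genotypes and 0 rose, with a median of -0.80. Of all genes tested 1.68% fell and 3.06% rose. The lowest p-values belonged to Cd8a (-6.22, SE 0.54, adjusted p = 2.16e-05), which encodes a coreceptor chain, and Rag1 (-6.63, SE 0.63, adjusted p = 4.13e-05), a recombinase of receptor gene assembly. The list shares Cd4, Cd8a, Cd8b1, Rag1, Rag2 and Dntt with the double-positive thymocyte markers above. The falls of Cd8a and Rag1 are thus part of the difference in those marker sums. Whether they reflect cell makeup or a response to the family was not tested. Of 6 tested cytokine and effector genes, whose median was 0.51, Il4, the interleukin-4 gene, and Tbx21, the gene of the regulator T-bet, rose by 3.10 (SE 0.55, adjusted p = 0.00396) and 2.75 (SE 0.73, adjusted p = 0.0421). Bcl6 fell by 4.83 (SE 0.34, adjusted p = 4.47e-06) in that list.

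Of 14 agonist selection genes, which respond to strong receptor signals, 8 fell and 0 rose in the mean of genotypes, with a median of -1.29. The lowest p-values belonged to the receptor-induced factors Egr2 (-2.37, SE 0.24, adjusted p = 7.95e-05) and Egr1 (-2.23, SE 0.24, adjusted p = 1.09e-04). In single genotypes, 4 thymocyte genes and 5 agonist selection genes fell in WT, and the same numbers in Bcl6KO. Of all genes 0.629% fell in WT and 0.553% in Bcl6KO. In WT, 2 thymocyte genes were called without library 1 of stage 0 or library 2 or 3 of stage 1, and 3 agonist selection genes without library 3 of stage 0. In Bcl6KO, 2 thymocyte genes were called without library 3 of stage 1, 3 agonist selection genes without library 1 or 3 of stage 1, and 0 agonist selection genes without libraries 2 and 3 of stage 0. None of the listed genes passed in the genotype comparisons or in the difference between them. The lists were chosen with earlier results of these libraries known, so their counts describe the data and are no independent evidence.

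By correlation of log2 values over the 12 libraries, among 8503 genes, the genes most like Ikzf1 were Srsf4 (Pearson r = 0.959), Chst2 (0.935) and Zfp330 (0.922). Those most like Ikzf2 were Yeats2 (0.880), Zfp444 (0.868) and Sox4 (0.860). Those most like Ikzf3 were Cd320 (0.897), Fbxo11 (0.895) and Egln3 (0.883). Cd320 averaged 149 ± 75.2 in Bcl6KO stage 0 and 12 ± 9.54 in Bcl6KO stage 1 (SD, n = 3). Those most like Ikzf4 were Zmat3 (0.958), Zcchc4 (0.903) and Ubxn1 (0.896), and those most like Ikzf5 were Angpt2 (0.914), Cep44 (0.908) and Sgpp2 (0.900). These values describe likeness across libraries that share groups and scaling.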

How the data were processed

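RNA of 12 libraries was analysed. The deposited score is the authors' normalised value: whole numbers for 48672 Ensembl gene IDs, of which 48312 had a symbol in GENCODE M21. The submitters' processing notes name build mm10 and the tools TopHat2, Bowtie2, bcl2fastq and DESeq. For the tool versions, the counting program, its annotation and its strand setting the entry is: not given in the sources used here. That library scaling had been applied was inferred from the values: median-of-ratios factors were 1.038 to 1.045 in all 12 libraries although totals differed, and whole numbers were skipped in libraries scaled up. The test planned for raw counts was therefore replaced. That change, the pseudocount and the filter were chosen after the values had been examined.

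Genes with a value of at least 10 in 3 or more libraries (15739) were tested with limma 3.58.1 in R 4.3.3 on log2(value + 4), with 1 mean per group over all 12 libraries, a mean-variance trend and robust moderation. Tests were two-sided, with Benjamini-Hochberg adjustment over all genes tested and a threshold of 0.05. The log2(value + 4) scale understates changes of low genes. The deposited scaling was kept, and levels are given without conversion to CPM because the totals are not depths. The fit was run on simulated data in which each gene had the same spread in all groups. Library weights in limma ran from 0.283 to 0.585 in Bcl6KO stage 0 and from 1.64 to 4.26 in WT stage 1. Such a difference in spread is not covered by that simulation. No 2 libraries of a group were duplicates (Pearson r of log2 values 0.689 to 0.916).

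One cell type marker is not reported here and was left out of its list. The members and lists were chosen with earlier results of these data known. Named genes are the members, up to 2 risen and 2 fallen genes of a list by lowest p or else its leading gene by level per kilobase, and the 3 genes most correlated with each member among those with a mean of at least 10 CPM of the summed values. Alternatives were other scalings, pseudocounts, filters and library sets.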

Additional observations from a re-analysis of the deposited data

How the results depend on the processing

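The planned count models could not be used on normalised values and were not run. The number of members called was the same in all alternatives for 5 of 7 comparisons. At stage 1, 1 member was called between genotypes with library weights and 0 otherwise. For the stage change as a mean of genotypes, 1 was called with values scaled to a common total or with library weights, 0 with Sp100 as a covariate, and 1 to 3 when 1 library was left out. The cause was not tested.

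The member changes that turned sign were uncalled in the reported fit and in each fit that turned them. Scaling to a common total without Sp100 gave -0.17 (Ikzf2) and -0.062 (Ikzf4) between genotypes at stage 0 and 0.13 (Ikzf1) for the difference of genotype effects. With Sp100 included these were -0.40 (Ikzf2), -0.089 (Ikzf3) and -0.27 (Ikzf4), and 0.33 (Ikzf1) and 0.15 (Ikzf2). Ikzf4 between genotypes at stage 0 was -0.21 with a pseudocount of 1, -0.49 with library weights, -1.13 with the Sp100 covariate and -3.66 without libraries 2 and 3 of Bcl6KO stage 0. For the difference of genotype effects, library weights gave 0.44 (Ikzf4), the Sp100 covariate 0.072 (Ikzf1) and 0.10 (Ikzf4), and leaving out that pair 0.029 (Ikzf1) and 3.41 (Ikzf4). For the mean genotype change, library weights gave 0.078 and the Sp100 covariate 0.074 for Ikzf2, and a pseudocount of 16 gave 0.18 for Ikzf4. Leaving out that pair gave 2.67 for the mean stage change of Ikzf4 (adjusted p = 0.0445).

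With 1 library left out, ranges were -0.10 to 0.31 (Ikzf2) and -1.34 to 2.09 (Ikzf4) between genotypes at stage 0, and -0.45 to 0.18 (Ikzf2) and -0.99 to 0.54 (Ikzf4) at stage 1. They were -1.37 to 2.06 (Ikzf4) between stages in Bcl6KO, and -0.38 to 0.15 (Ikzf1), -0.54 to 0.091 (Ikzf2) and -2.34 to 1.09 (Ikzf4) for the difference of genotype effects. They were -0.18 to 0.14 (Ikzf2) and -0.80 to 0.92 (Ikzf4) for the mean genotype change and -0.20 to 1.52 (Ikzf4) for the mean stage change.

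Replicate numbers did not pair the libraries: 2 of 18 same-number pairs had a correlation of deviations over 0.1 (-0.0781 to 0.124), and 6 of 12 libraries were most like those of their own number. With the replicate block 263 in place of 296 genes were called between stages in Bcl6KO, with Ikzf3 at -2.47 (adjusted p = 0.00617), and 4 in place of 14 between genotypes at stage 0.

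Counts of called genes moved by over 1.5 times. Between stages in Bcl6KO, 296 became 112 without the filter, 47 with only the groups compared, 76 with library weights, 23 with the Sp100 covariate, 112 without libraries 2 and 3 of Bcl6KO stage 0 and 448 with values scaled to a common total. With 1 library left out it was 66 (library 3 of Bcl6KO stage 1) to 590 (library 1 of Bcl6KO stage 0). In WT, 177 became 102 without the filter, 520 with library weights, 60 with the Sp100 covariate, 406 without that pair, and 37 (library 3 of WT stage 0) to 323 (library 2 of WT stage 0) with 1 library left out. In the mean of genotypes, 745 became 135 with the Sp100 covariate and 454 without library 1 of WT stage 1. Between genotypes at stage 0, 14 became 3 without the filter, 29 without robust moderation, 34 and 55 with values scaled to a common total without and with Sp100, 25 with a pseudocount of 1, 1 with only the groups compared, 9 without that pair and 0 with library weights or the Sp100 covariate. With 1 library left out it was 0 (library 1 of WT stage 0) to 330 (library 1 of Bcl6KO stage 0). At stage 1, 0 became 16 with library weights and 3 without that pair. In the mean of stages, 7 became 0 with the Sp100 covariate and 1 to 65 with 1 library left out. Of 1204 list counts under alternatives, 39 moved by over 1.5 times. The unrecovered depth of 9 libraries limits what can be said of low values such as those of Ikzf4.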
